A study of Mus musculus with 8 samples.

Results

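The transcripts of 9 chemokine and chemerin receptors were examined in bone marrow-derived macrophages (BMDMs) of LysM and K2KO mice. The genes were taken by name (Ccr1, Ccr2, Ccr3, Ccr7, Ccrl2, Cx3cr1, Cxcr4, Ackr3 and Cmklr1) from the 23761 genes of the deposited expression table. BMDMs are macrophages grown from marrow of the femur and tibia in medium conditioned by L929 fibroblasts. LysM mice carry Cre recombinase on both alleles of the lysozyme M gene (LysM Cre/Cre). K2KO mice carry the same Cre on both alleles together with floxed Klf2 (LysM Cre/Cre KLF2 flox/flox), so both groups have the Cre insertion. The Cre is driven by the lysozyme M promoter, which is active in myeloid cells. All mice were 3 months old. Total RNA of 4 LysM and 4 K2KO cultures was sequenced, and the sample descriptions mark every library as vehicle. The 8 columns of the table give the genotype but not the mouse, and the libraries are named here LysM0 to LysM3 and K2KO0 to K2KO3.

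Chemokine receptors are G protein-coupled receptors that steer leukocytes along gradients of small secreted chemokines, mostly through Gi proteins. Ccr1, Ccr2, Ccr3, Ccr7, Cx3cr1 and Cxcr4 belong to this signalling class. Atypical receptors such as Ackr3 bind chemokine and take it up or recruit arrestin without classical G protein signalling. Cmklr1 is a signalling receptor for the leukocyte attractant chemerin, and Ccrl2 binds chemerin and presents it to cells that carry Cmklr1 without signalling itself. In monocytes and macrophages, Ccr2 is known for release from the marrow and recruitment to inflamed tissue, Cx3cr1 for survival and patrolling, and Cxcr4 for retention in the marrow.

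The start sites of the receptors whose transcripts passed the test of genotype are shown first, since KLF2 belongs to a family of factors known to bind CACCC boxes. Each sequence runs 5′ to 3′ on the strand of the gene, from 250 bases before a RefSeq transcription start to 50 bases after it, on GRCm38.p6. Capitals mark CACCC on either strand, which reads GGGTG where it lies on the other strand. Ccrl2 lies at chr9:111057469-111057768 on the minus strand, and this start is 1 of 3 that RefSeq gives. Cmklr1 lies at chr5:113643554-113643853 on the minus strand, Cx3cr1 at chr9:120068247-120068546 on the minus strand, and Ccr3 at chr9:124021721-124022020 on the plus strand. The gene positions used below put the 5′ ends of Cmklr1 and Cx3cr1 further upstream, at 113650426 and 120069879, which these windows do not cover.
Ccrl2: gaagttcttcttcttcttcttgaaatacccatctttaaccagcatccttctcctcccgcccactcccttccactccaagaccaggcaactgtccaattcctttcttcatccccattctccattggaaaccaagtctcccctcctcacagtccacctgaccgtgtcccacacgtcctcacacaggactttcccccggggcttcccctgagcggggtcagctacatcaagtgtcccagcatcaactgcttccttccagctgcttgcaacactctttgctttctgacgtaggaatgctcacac
Cmklr1: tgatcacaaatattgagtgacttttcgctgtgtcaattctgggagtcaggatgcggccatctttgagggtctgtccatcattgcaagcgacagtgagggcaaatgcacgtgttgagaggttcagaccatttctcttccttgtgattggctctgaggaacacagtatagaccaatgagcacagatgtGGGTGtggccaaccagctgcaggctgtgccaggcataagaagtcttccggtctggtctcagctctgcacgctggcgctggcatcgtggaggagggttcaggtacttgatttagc
Cx3cr1: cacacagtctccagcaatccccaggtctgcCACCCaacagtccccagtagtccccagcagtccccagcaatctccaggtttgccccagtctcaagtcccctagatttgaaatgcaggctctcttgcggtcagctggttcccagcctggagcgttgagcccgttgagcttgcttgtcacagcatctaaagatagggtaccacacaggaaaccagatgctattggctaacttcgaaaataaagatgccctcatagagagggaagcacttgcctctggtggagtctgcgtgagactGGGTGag
Ccr3: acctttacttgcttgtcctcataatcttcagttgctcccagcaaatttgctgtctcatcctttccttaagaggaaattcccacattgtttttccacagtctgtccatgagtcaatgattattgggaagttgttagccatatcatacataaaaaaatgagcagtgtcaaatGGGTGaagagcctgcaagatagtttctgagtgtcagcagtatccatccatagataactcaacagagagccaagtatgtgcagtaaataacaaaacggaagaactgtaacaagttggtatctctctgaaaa
A promoter sequence was matched for 8 of the 9 receptors. CACCC was found in 4 of the 8, namely Cxcr4, Cmklr1, Cx3cr1 and Ccr3, against 57.5% of 32851 RefSeq promoters of the same length. The Cx3cr1 window holds 2 matches, 1 on each strand, and the Ccrl2 window holds none. The longer CCCCACCC was found in 0 of the 8, against 9.99% of all promoters. The purine-rich GAGGAA, part of sites bound by the myeloid factor PU.1, was found in 3 of the 8 (Ccr1, Ccr3 and Cmklr1) against 28.3% of all promoters. TATAAA was found in 2 of the 8 (Cxcr4 and Ackr3) against 13.6%. Both strands were searched for each motif, and each CCCCACCC also contains a CACCC.

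Expression was given as FPKM, in which the fragments of a gene are divided by the length of its transcript and by the mapped fragments of the library. The summed FPKM was 531755 ± 23776 (SD, n = 4) in the LysM libraries and 473577 ± 23980 in the K2KO libraries. FPKM carry no read counts, and steps between low values gave only a relative depth, from 0.883 to 1.41 of that of LysM0. Gapdh, a gene used by every cell, had values of only 0 to 0.4999 FPKM, with Actb at 1962 to 2949 FPKM. Low FPKM were therefore not taken as absence of a transcript, and levels of different genes were compared only as the table lists them.

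Klf2, the gene targeted in K2KO mice, was at 44.1, 52.9, 64.7 and 72.8 FPKM in LysM0 to LysM3 and at 45.5, 41.6, 59.2 and 59.3 FPKM in K2KO0 to K2KO3. The groups overlapped and the difference did not pass the test (log2 fold change -0.18 ± 0.17 (SE), adjusted p = 0.46 by limma). Which exons the floxed allele loses is not given in the sources used here. The Klf2 values thus did not separate the groups, and every direction below is that of libraries labelled K2KO against libraries labelled LysM. Macrophage markers were high in all 8 libraries, with Cd68 at 1637 to 1942 FPKM, Csf1r at 479.7 to 600.3 FPKM and Adgre1 (F4/80) at 351 to 519 FPKM. Lyz2, the gene at which the Cre is inserted on both alleles in every mouse, was at 11.5 to 22.5 FPKM. It was 18.6 ± 2.88 FPKM in LysM and 13.2 ± 1.73 FPKM in K2KO libraries, and it fell in the K2KO libraries (log2 fold change -0.49 ± 0.12, adjusted p = 0.026).

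The receptors covered a wide range of levels. Cxcr4 was the most abundant in every library, at 201 ± 32.1 FPKM in LysM and 247 ± 33.0 FPKM in K2KO macrophages (SD, n = 4). Ccrl2 followed at 62.4 ± 10.2 and 35.4 ± 5.60 FPKM, and its range overlapped neither that of Cxcr4 nor that of the receptors below it in either genotype. In LysM macrophages the order went on with Ccr2 (19.8 ± 6.47 FPKM) and Cmklr1 (14.5 ± 2.28 FPKM), whose ranges overlapped, then Ccr1 (5.23 ± 0.852 FPKM) and Cx3cr1 (4.71 ± 0.995 FPKM), whose ranges also overlapped. Ccr3 (2.27 ± 0.456 FPKM), Ccr7 (0.968 ± 0.450 FPKM) and Ackr3 (0.0346 ± 0.0374 FPKM) each lay below all values of the receptor before them. In K2KO macrophages Ccr2 (17.5 ± 4.58 FPKM) stood apart from Cmklr1 (9.27 ± 1.12 FPKM), Cmklr1 overlapped with Ccr1 (6.66 ± 1.32 FPKM), and Ccr3 (3.26 ± 0.265 FPKM) came before Cx3cr1 (2.26 ± 0.908 FPKM) and Ccr7 (1.63 ± 0.622 FPKM), with overlap between each pair of neighbours in that trio. Cx3cr1 and Ccr3 thus changed places in the order of group means. This order was the same after the FPKM of each library were scaled to an equal sum, but such scaling cannot change the order within a library.

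**Figure D1:**
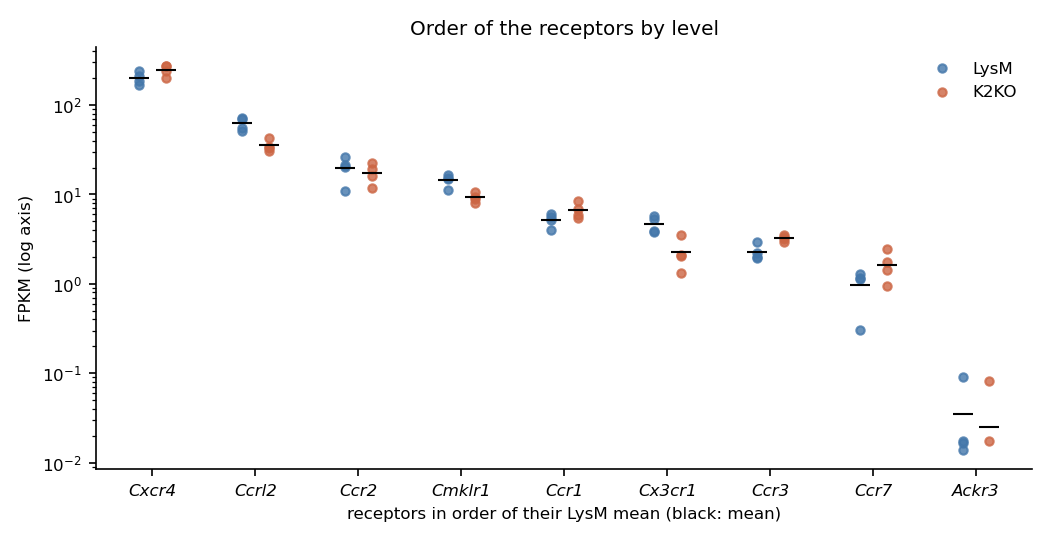
Level of the 9 receptors, as FPKM on a log axis, in 4 LysM (blue) and 4 K2KO (orange) libraries, with the mean of each group as a black bar and values of 0 left off the axis. The receptors run from Cxcr4, with means of 201 and 247 FPKM, to Ackr3, with means under 0.1 FPKM, and the Cx3cr1 mean lies above the Ccr3 mean in LysM only.

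The summed FPKM of the 9 receptors was 311 ± 38.5 in LysM and 323 ± 31.1 in K2KO libraries, and the ranges overlapped. Within that sum Cxcr4 made up 67.0, 66.3, 61.0 and 63.2% in LysM0 to LysM3 and 75.8, 72.1, 77.6 and 79.6% in K2KO0 to K2KO3. The share of Cxcr4 was higher in every library labelled K2KO than in every LysM library. Ccrl2 made up 20.0% ± 1.57 of the sum in LysM and 11.2% ± 2.97 in K2KO libraries. These shares are tied to each other, since a smaller share of 1 receptor raises those of the rest.

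To compare the genotypes, limma was fitted to log2(FPKM + 0.1) of the 10920 genes whose FPKM averaged 1 or more, with Benjamini-Hochberg adjustment over all of them. A gene passed the test when its adjusted p was below 0.05 and its log2 fold change was larger than 0.26 in either direction. The added 0.1 makes the fold change of a low gene smaller than its ratio of FPKM. Over all genes 18.4% passed, of which 9.84% of genes tested were higher and 8.61% lower in the K2KO libraries, and the median log2 fold change was 0.01. With upper-quartile scaling of the libraries the share of higher genes among those that passed moved from 53.3% to 64.1%, and after correction for transcript GC content and length it was 44.2%. Of the 9 receptors 8 were tested, Ackr3 lying below the filter, and 4 passed. Ccrl2, Cmklr1 and Cx3cr1 fell and Ccr3 rose, while Ccr1, Ccr2, Ccr7 and Cxcr4 did not pass. The median log2 fold change of the 8 was 0.08. The values of LysM and K2KO libraries did not overlap for 3 of the 8, against 23.1% of all genes tested.

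**Figure D2:**
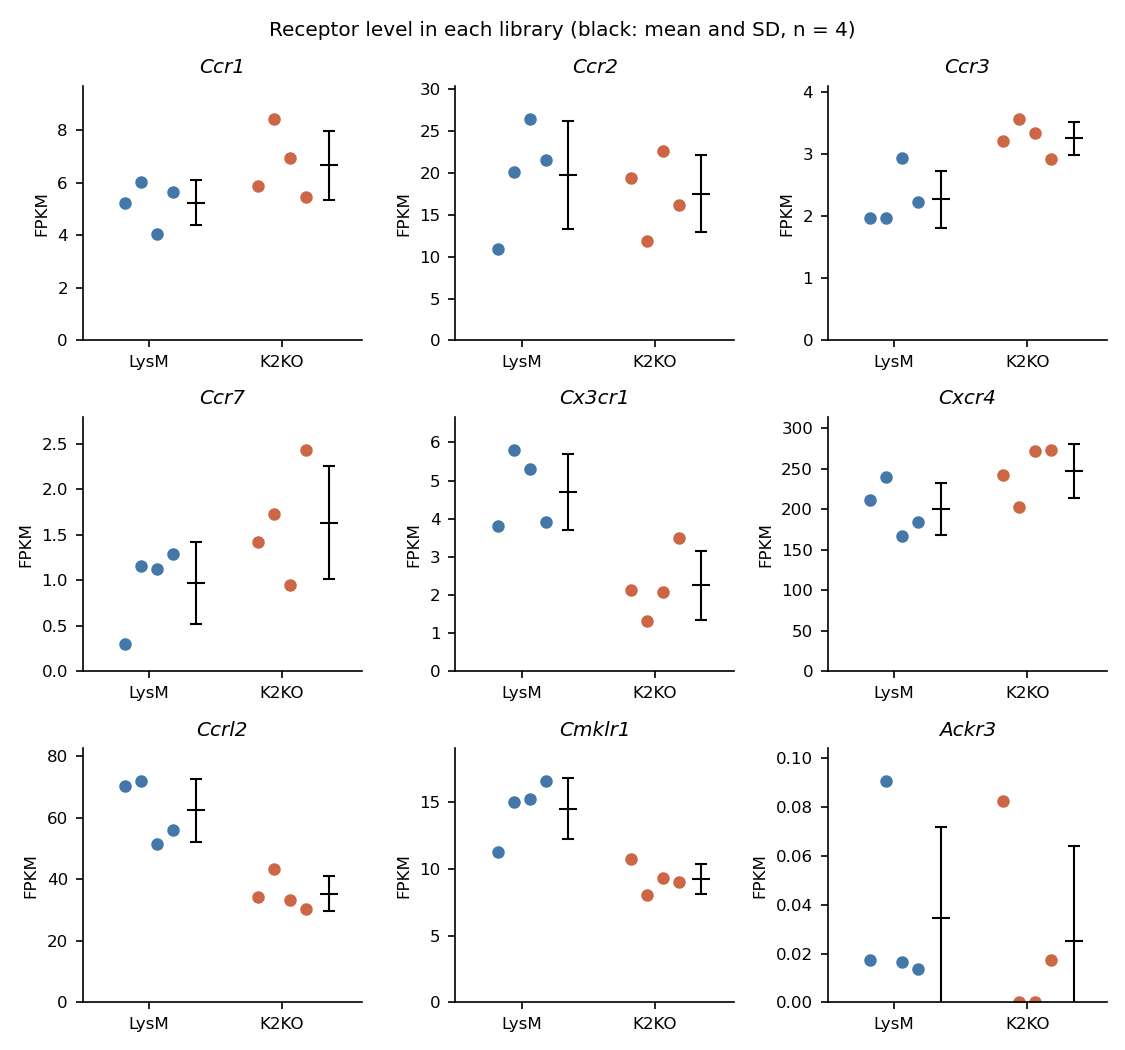
FPKM of each receptor in the 4 LysM (blue) and 4 K2KO (orange) libraries, numbers 0 to 3 from left to right within a group, with the group mean and SD in black and a separate linear axis from 0 for each gene. Ccrl2, Cmklr1 and Cx3cr1 are lower in all 4 K2KO libraries than in any LysM library, whereas the groups of the other receptors overlap.

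The chemerin receptors Ccrl2 and Cmklr1 fell in the libraries labelled K2KO. Ccrl2 (ENSMUSG00000043953.12, chromosome 9, 111054486 to 111057519, minus strand, GRCm38) was at 70.4, 71.9, 51.4 and 56.0 FPKM in LysM0 to LysM3 and at 34.4, 43.4, 33.3 and 30.4 FPKM in K2KO0 to K2KO3. Every K2KO library was below the lowest LysM library, and the mean was 43.3% lower. The log2 fold change was -0.82 ± 0.14 (adjusted p = 0.011, limma; exact two-sided permutation p = 0.0286, the smallest that 4 against 4 libraries allow). In these bulk cultures, fewer cells that express a gene and less RNA per cell cannot be told apart. Ccrl2 passed in all 8 fits that left out 1 library, with log2 fold changes from -0.92 to -0.74.

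Cmklr1, the signalling chemerin receptor (ENSMUSG00000042190.12, chromosome 5, 113612354 to 113650426, minus strand), was at 11.3, 15.0, 15.3 and 16.6 FPKM in LysM0 to LysM3 and at 10.7, 8.04, 9.30 and 9.01 FPKM in K2KO0 to K2KO3. The groups did not overlap, but LysM0 and K2KO0 lay close to each other. It fell with a log2 fold change of -0.64 ± 0.13 (adjusted p = 0.015, limma). Without LysM3 the adjusted p was 0.063 and without K2KO2 it was 0.051, and the gene passed in the other 6 of the 8 such fits. An antisense gene, Gm15736, lies within Cmklr1 and was listed at 0 FPKM in all 8 libraries. Rarres2, which encodes chemerin, was listed at 0 to 1.28 FPKM, with the highest value in K2KO0, and was too low to be tested.

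Cx3cr1, the receptor of the membrane-bound chemokine fractalkine, showed the largest fall among the receptors tested. It was at 3.81, 5.79, 5.31 and 3.92 FPKM in LysM0 to LysM3 and at 2.13, 1.32, 2.07 and 3.50 FPKM in K2KO0 to K2KO3. All LysM libraries were above all K2KO libraries, although K2KO3 came close to LysM0 and LysM3. The log2 fold change was -1.09 ± 0.26 (adjusted p = 0.024, limma), and the mean in K2KO was 0.479 of that in LysM. It passed in 2 of the 8 fits that left out 1 library, those without LysM0 and without K2KO3, and its adjusted p reached 0.071 in the rest. The gene (ENSMUSG00000052336.6, chromosome 9, 119901616 to 120069879, minus strand) overlaps 5 other genes in the annotation, of which 3 were tested and none passed. Csrnp1 was at 22.1 FPKM in LysM and 20.9 FPKM in K2KO, and Wdr48 at 9.05 and 10.2 FPKM, with a log2 fold change of 0.17 that was below the size required. Cx3cl1, which encodes fractalkine, was at 0.155 to 0.365 FPKM and was not tested.

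Ccr3, known best as the eotaxin receptor of eosinophils, rose in the libraries labelled K2KO. It was at 1.97, 1.97, 2.93 and 2.22 FPKM in LysM0 to LysM3 and at 3.21, 3.56, 3.34 and 2.93 FPKM in K2KO0 to K2KO3. LysM2 and K2KO3 were nearly equal, and the other LysM libraries were below every K2KO library. The log2 fold change was 0.52 ± 0.13 (adjusted p = 0.030, limma), and the exact two-sided permutation test gave p = 0.0571. It passed without LysM2 or without K2KO3 and in none of the other 6 fits that left out 1 library, where the adjusted p reached 0.091. The ratio of Cx3cr1 to Ccr3 was 1.93, 2.95, 1.81 and 1.76 in LysM0 to LysM3 and 0.663, 0.371, 0.621 and 1.20 in K2KO0 to K2KO3, so that the LysM libraries held more Cx3cr1 than Ccr3 in each case and 3 of the 4 K2KO libraries held less. Among the eosinophil, basophil and mast cell markers, 2 of 9 were tested and neither passed. The most abundant of them, Prg2, was at 2.12 to 5.84 FPKM, Siglecf was at 0.809 to 1.85 FPKM, Epx was at 0 to 0.116 FPKM and Ear1 at 0 to 0.165 FPKM. The summed level of the 9 markers was 6.34 ± 1.07 FPKM in LysM and 5.54 ± 0.989 FPKM in K2KO libraries. Prg2, Epx and Ear1 had lower means in K2KO, whereas those of Siglecf, Kit, Mcpt8, Gata2, Cpa3 and Ms4a2 were higher. Kit, at 0.123 ± 0.0362 FPKM in LysM and 0.333 ± 0.0645 FPKM in K2KO, was the only marker of this list whose groups did not overlap. The part of these markers in the rise of Ccr3 was not tested.

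Ccr1, Ccr3 and Ccr2 lie in 1 cluster of 151 kb on chromosome 9. Ccr1 (123962124 to 123968692, minus strand) binds inflammatory chemokines such as Ccl3, and it was at 5.23, 6.01, 4.05 and 5.65 FPKM in LysM0 to LysM3 and at 5.86, 8.41, 6.92 and 5.46 FPKM in K2KO0 to K2KO3. The highest values were those of K2KO1 and K2KO2, and K2KO0 and K2KO3 lay within the LysM range. The difference of 0.34 ± 0.16 on the log2 scale did not pass (adjusted p = 0.14, limma). Ccr3 spans 124021972 to 124031689 and Ccr2 spans 124101950 to 124113557, both on the plus strand. Ccr1l1, a Ccr1-like gene between Ccr1 and Ccr3, was at 0.149 to 0.492 FPKM, and Xcr1, on the other side of Ccr1, was below 0.1 FPKM in all 8 libraries. No listed transcript matched a receptor at 95% identity over 200 bases. The transcripts of Ccr1, Ccr2 and Ccr3 have a low GC content near 39%, against a median of 49.7% over genes tested, and the fold change fell with GC content across 10899 genes (Spearman rho = -0.40, where the points are genes of the same 8 libraries). Among the 534 genes with a GC content of 38.1 to 40.4%, 26.4% were higher and 1.31% lower in the K2KO libraries. With each library corrected for GC content and length, the log2 fold change of Ccr3 was 0.33 and it no longer passed (adjusted p = 0.074). The same correction took Ccr1 from 0.34 to 0.17 and Ccr2 from -0.14 to -0.39, and neither passed.

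Ccr2, the receptor of Ccl2 and Ccl7 that marks inflammatory monocytes, was at 11.0, 20.1, 26.4 and 21.6 FPKM in LysM0 to LysM3 and at 19.4, 11.9, 22.6 and 16.2 FPKM in K2KO0 to K2KO3. The groups overlapped throughout, with the lowest value in each group in LysM0 and K2KO1. Its log2 fold change was -0.14 ± 0.27 (adjusted p = 0.72, limma), and it was -0.40 without LysM0 and turned to 0.019 without LysM2 and to 0.030 without K2KO1. Cd74, which is both the invariant chain of MHC class II and a receptor of Mif, was also lowest in LysM0 (1175 FPKM) among the LysM libraries and in K2KO1 (1087 FPKM) among the K2KO libraries. H2-Ab1, the most abundant gene among the dendritic cell markers, was at 256 FPKM in LysM0 and 231 FPKM in K2KO1 and reached 658 FPKM in LysM3. Itgax, of the same list, was instead highest of its groups in LysM0 (6.01 FPKM) and K2KO1 (6.52 FPKM). For the monocyte marker F13a1, LysM0 and K2KO1 were the lowest of their groups (5.31 and 5.07 FPKM, others 9.70 to 19.9 FPKM). The same held for the macrophage marker Fcgr1 (78.9 and 66.6 FPKM), Pf4 (141 and 162 FPKM) and Mif (285 and 277 FPKM). It did not hold for Chil3 and Adgre1, which were highest of the K2KO libraries in K2KO1 (28.0 and 519 FPKM). Mertk was highest of the LysM libraries in LysM0 (16.7 FPKM). Of the 10 dendritic cell markers 3 were tested and none passed, their summed level was 523 ± 186 FPKM in LysM and 320 ± 87.7 FPKM in K2KO libraries, and Flt3 and Zbtb46 stayed under 1 FPKM. Nearly all of that sum was H2-Ab1 (514 and 310.0 FPKM in LysM and K2KO), while the means of Fscn1 (1.29 and 2.19 FPKM), Ccl22 (0.531 and 1.33 FPKM), Flt3 (0.284 and 0.520 FPKM), Cd209a and Clec9a were higher in K2KO and those of Itgax (5.30 and 4.52 FPKM), Irf4 (0.557 and 0.382 FPKM) and Zbtb46 were lower. Whether these markers bear on Ccr2 was not tested.

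Cxcr4, the receptor of Cxcl12, was at 211, 240.2, 167 and 185 FPKM in LysM0 to LysM3 and at 242, 202, 271 and 273 FPKM in K2KO0 to K2KO3. K2KO2 and K2KO3 were above all LysM libraries, K2KO0 only just so, and K2KO1 lay within the LysM range. The difference of 0.30 ± 0.13 on the log2 scale did not pass (adjusted p = 0.13, limma), but it passed under quantile normalization at 0.48 (adjusted p = 0.034). Cxcr4 lies on chromosome 1 (128588199 to 128592293, minus strand). Its atypical partner Ackr3 (chromosome 1, 90203980 to 90216751, plus strand), which binds Cxcl12 as well, was at 0.0174, 0.0906, 0.0164 and 0.0138 FPKM in LysM0 to LysM3 and at 0.0826, 0, 0 and 0.0173 FPKM in K2KO0 to K2KO3. These values lie close to 0 in both groups and showed no separation (exact two-sided permutation test, p = 0.514). The transcript of Cxcl12 itself stayed under 0.1 FPKM in all 8 libraries.

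Ccr7, which guides antigen-presenting cells to lymph nodes, was at 0.302, 1.16, 1.12 and 1.29 FPKM in LysM0 to LysM3 and at 1.42, 1.73, 0.944 and 2.43 FPKM in K2KO0 to K2KO3 (chromosome 11, 99144196 to 99155077, minus strand). LysM0 was far below the other libraries and K2KO2 lay within the LysM range. The log2 fold change of 0.77 ± 0.42 did not pass (adjusted p = 0.21, limma), and it was 0.35 without LysM0. Of its ligands, Ccl19 was listed at 0 FPKM in all 8 libraries.

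Of 17 listed ligands of these receptors 10 were tested and 4 passed, and all 4 fell, where 8.61% of all genes tested did. The median log2 fold change of the 10 was -0.57, and 9 of them had a lower mean in the K2KO libraries. The exception was Ccl5, at 19.4 ± 9.64 FPKM in LysM and 32.0 ± 13.3 FPKM in K2KO. It did not pass (log2 fold change 0.75 ± 0.37, adjusted p = 0.17, limma). Ccl2, the main attractant of monocytes through Ccr2, was at 8.23, 16.8, 19.4 and 16.1 FPKM in LysM0 to LysM3 and at 8.59, 5.90, 6.27 and 9.37 FPKM in K2KO0 to K2KO3. LysM0 lay among the K2KO libraries, and the log2 fold change was -0.96 ± 0.26 (adjusted p = 0.034). With the libraries blocked by column number Ccl2 did not pass (adjusted p = 0.059, limma). Ccl7, another ligand of Ccr2, fell by 0.87 on the log2 scale (10.5 ± 2.94 to 5.64 ± 1.43 FPKM, adjusted p = 0.037), and its groups overlapped too. Ccl3, a ligand of Ccr1, was at 137, 170, 150 and 156 FPKM in LysM0 to LysM3 and at 112, 111, 71.8 and 77.0 FPKM in K2KO0 to K2KO3. Its groups were apart, as were those of Ccl4, which went from 164 ± 14.5 to 101 ± 10.2 FPKM. The log2 fold changes were -0.74 ± 0.15 for Ccl3 and -0.70 ± 0.09 for Ccl4 (adjusted p = 0.017 and 0.0049, limma). The most abundant ligands, Mif (544 ± 184 and 452 ± 145 FPKM in LysM and K2KO), Ccl6 (388 ± 66.9 and 286 ± 43.3 FPKM) and Ccl9 (244 ± 44.9 and 201 ± 27.0 FPKM), did not pass. Without LysM0, Ccl6 passed at -0.57 (adjusted p = 0.020, limma) and Ccl9 at -0.40 (adjusted p = 0.037, limma). With 1 library left out in turn, Ccl4 passed in all 8 fits, Ccl3 in 5 and Ccl2 and Ccl7 in 2 each.

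**Figure D3:**
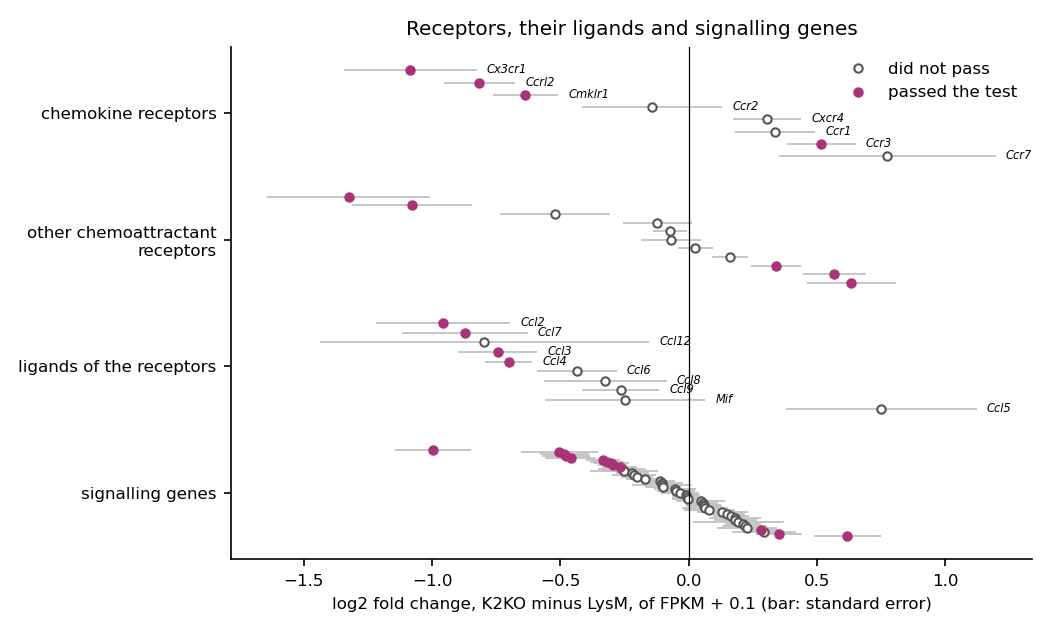
Log2 fold change (K2KO minus LysM, of FPKM + 0.1) with its standard error for the 8 receptors tested, other chemoattractant receptors, ligands and signalling genes, where filled points passed the test and 1 gene of the other receptors is not shown. Ccrl2, Cmklr1 and Cx3cr1 lie left of 0 and Ccr3 right of it, and all 4 ligands that passed (Ccl2, Ccl7, Ccl3 and Ccl4) lie left of 0.

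Among 27 other chemoattractant receptors 12 were tested and 5 passed, 3 higher and 2 lower, where 18.4% of all genes tested passed, with a median log2 fold change of -0.02. The formyl peptide receptors Fpr1 (6.61 ± 1.82 to 2.74 ± 1.42 FPKM) and Fpr2 (9.25 ± 3.01 to 4.25 ± 1.07 FPKM) fell, by 1.32 and 1.08 on the log2 scale. The sphingosine 1-phosphate receptors S1pr1 (21.6 ± 3.13 to 32.1 ± 4.11 FPKM) and S1pr2 (29.3 ± 2.63 to 37.2 ± 4.43 FPKM) rose, and so did the oxysterol receptor Gpr183 (4.09 ± 0.938 to 6.34 ± 1.09 FPKM). The groups did not overlap for these 5 of the 12 genes tested, beside 23.1% of all genes tested. The highest levels belonged to Cd74, to the complement receptor C5ar1 (401 ± 19.2 and 381 ± 20.8 FPKM in LysM and K2KO) and to C3ar1 (276 ± 18.1 and 308 ± 17.6 FPKM), none of which passed. With 1 library left out in turn, S1pr1 and Fpr2 passed in 5 of 8 fits, Fpr1 in 4, S1pr2 in 2 and Gpr183 in 1. With quantile normalization Gpr183 did not pass (0.55, adjusted p = 0.066, limma). After the GC content and length correction neither Gpr183 (0.55, adjusted p = 0.057) nor S1pr2 (0.26, adjusted p = 0.077) passed. C3ar1 moved from 0.16 to 0.36 with quantile normalization and passed there (adjusted p = 0.023, limma), and was at -0.0021 after that correction. Without LysM0, Cd74 passed at -0.74 (adjusted p = 0.013, limma), against -0.52 with all libraries.

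Of 48 genes listed as signalling machinery behind these receptors 45 were tested and 13 passed (28.9%, where 18.4% of all genes tested did). Of the 13, 10 were lower and 3 higher, and the median log2 fold change of the 45 was -0.03. The 3 higher genes include Cnr2, which is itself a receptor and not part of that machinery. Gnai2, the most abundant Gi alpha subunit here, fell by 0.27 on the log2 scale (561 ± 10.7 to 466 ± 32.7 FPKM, adjusted p = 0.027, limma), just past the threshold of 0.26. It did not pass with upper-quartile scaling (-0.23), quantile normalization (-0.08) or the GC content and length correction (-0.14). With upper-quartile scaling 9 of the signalling genes passed and Tiam1 did not. With quantile normalization Gnb2 and Cnr2 did not pass, and Arrb2 passed at -0.29. After the GC content and length correction Gnb2 (-0.14, adjusted p = 0.14), Gnai3 (0.20, adjusted p = 0.079), Rgs19 (-0.37, adjusted p = 0.056) and Cnr2 (0.26, just under the threshold) did not pass either, and Rgs18 passed at 0.41. Among the signalling genes named here Fgr passed in all 8 fits with 1 library left out, Gnb2 in 7, Arrb2 and Rgs19 in 6 each, Rgs18 and Pik3r6 in 5 each, Gnai3 in 3, and Gnai2, Tiam1 and Cnr2 in 2 each. In the fit to all libraries, Gnai3 rose by 0.35 (18.3 ± 1.48 to 23.4 ± 2.47 FPKM). The beta subunit Gnb2 fell by 0.33 (363 ± 13.8 to 288 ± 16.0 FPKM), and Arrb2, the beta-arrestin that desensitizes such receptors, fell by 0.48 (306 ± 28.1 to 219 ± 22.6 FPKM). The Src family kinase Fgr showed the largest fall, by 1.00 (3.45 ± 0.405 to 1.70 ± 0.348 FPKM), followed by the Rac activator Tiam1, by 0.50. Of the regulators of G protein signalling, Rgs18 rose by 0.62 (5.04 ± 0.276 to 7.89 ± 1.47 FPKM) and Rgs19 fell by 0.48 (48.3 ± 5.25 to 34.7 ± 3.22 FPKM). Pik3r6, a regulatory subunit of PI3-kinase gamma, fell by 0.46, the cannabinoid receptor Cnr2 rose by 0.28, and Cdc42 did not pass (435 ± 32.1 and 425 ± 25.4 FPKM in LysM and K2KO).

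The neighbourhood of Ccrl2 was examined because Ccrl2 had the lowest adjusted p among the receptors. Gm43814 and Ccdc12 were chosen for description after their values were seen. Of 21 genes tested within 1 Mb of Ccrl2, 3 passed (14.3%), 1 higher and 2 lower in the K2KO libraries, where 18.4% of all genes tested passed. Gm43814, a 413-base transcript model of uncertain status on the same strand, lies 1.29 kb beyond the 3′ end of Ccrl2 at 111052781 to 111053193 of chromosome 9. It went from 31.8 ± 5.12 FPKM in LysM to 5.35 ± 0.821 FPKM in K2KO libraries (log2 fold change -2.55 ± 0.13, adjusted p = 1.9e-05, limma), a larger fall than that of Ccrl2. The ratio of Gm43814 to Ccrl2 was 0.397, 0.546, 0.567 and 0.549 in LysM0 to LysM3 and 0.139, 0.138, 0.136 and 0.202 in K2KO0 to K2KO3. The share of reads that the counting gave to each of the pair was not tested. Ccdc12, 343 kb away, went from 133 ± 10.6 to 94.2 ± 17.5 FPKM (log2 fold change -0.51 ± 0.13). Within 1 Mb of Cx3cr1, 3 of 17 genes tested passed, and of Cmklr1 3 of 17.

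**Figure D4:**
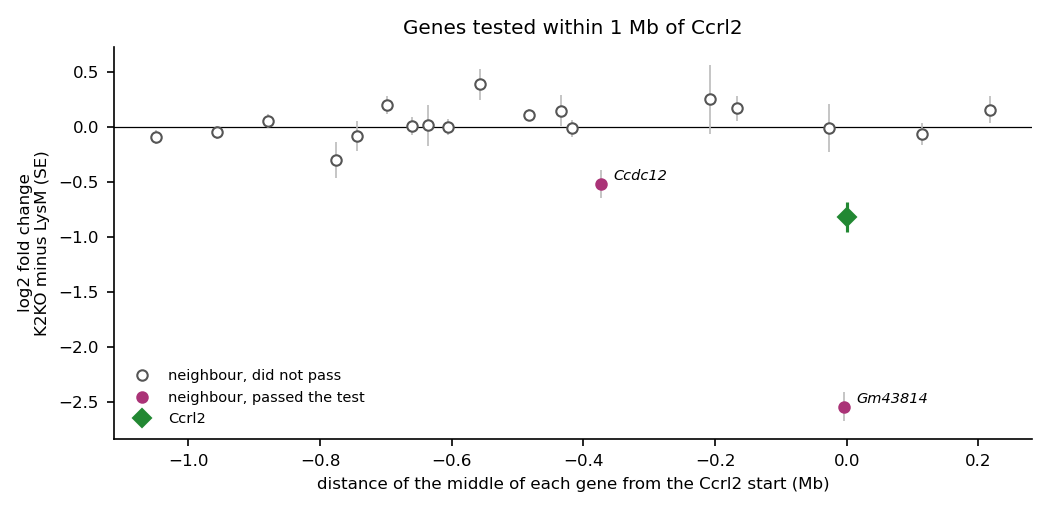
Log2 fold change (K2KO minus LysM, with SE) of genes tested within 1 Mb of Ccrl2 (1 gene is not shown) against the distance of their middle from the Ccrl2 start in Mb, with Ccrl2 as a green diamond at 0. Gm43814 lies beside Ccrl2 at -2.55 and Ccdc12 at -0.51, and the open points of the genes that did not pass lie between -0.30 and 0.39.

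The genes whose log2 levels followed each receptor most closely over the 8 libraries were named by Pearson's r, as a description, since all genes share the libraries and their depth. The 8 libraries hold both genotypes, so r includes the genotype difference, and genes picked for likeness to a receptor that changed move the same way by construction. Ccrl2 was followed by Nr1h3, which encodes the oxysterol receptor LXR alpha (r = 0.99), Adamtsl5 (0.98) and Tmem41a (0.97), and all 3 fell in the K2KO libraries, Nr1h3 from 29.4 to 20.0 FPKM. Cmklr1 was followed by Smpdl3b (r = 0.995), Slc2a6 (0.98) and Kptn (0.98), which fell as well, Slc2a6 from 11.8 to 6.51 FPKM. Cx3cr1 was followed by Cisd1 (0.99), Emc9 (0.98) and 2810428I15Rik (0.98), of which Emc9 and 2810428I15Rik passed. Ccr3 was followed by Slc30a9 (0.98), Phip (0.98) and Mynn (0.98), of which Phip passed. For Ccr1 the closest were Plrg1, Cdadc1 and Rsad1, and for Ccr2 they were Pyhin1, Klf11 and AI607873. Those of Cxcr4 were Rapsn, Gm37336 and Irs2, and those of Ccr7 were Bid, Arl3 and Tigd2, and none of these 12 passed. Among the receptors themselves the highest positive r was that of Cx3cr1 and Cmklr1 (0.81 over 8 libraries). The most negative was that of Ccr3 and Ccrl2 (-0.84), which changed in opposite directions.

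Markers of other cells were listed beside the receptors. The summed level of the 9 macrophage markers was 4181 ± 93.9 FPKM in LysM and 3893 ± 78.8 FPKM in K2KO libraries without overlap (exact two-sided permutation p = 0.0286), with Mertk higher and Lyz2 lower. As a share of the summed FPKM of the library, a scaling chosen after seeing the data, the markers made up 0.788% ± 0.0410 in LysM and 0.823% ± 0.0302 in K2KO, so that the direction turned and the groups overlapped. Most of the difference of the unscaled sums lay in Cd14, at 1028 ± 56.7 FPKM in LysM and 829 ± 118 FPKM in K2KO libraries, which did not pass (adjusted p = 0.063, limma). Of the 7 monocyte markers 5 were tested, and Spn (CD43) fell from 2.74 ± 0.546 to 1.57 ± 0.104 FPKM (adjusted p = 0.016), while Chil3, the most abundant, did not pass and Ly6c2 was at 2.17 to 5.08 FPKM. Plac8 went the other way, at 3.79 ± 2.12 FPKM in LysM and 7.39 ± 1.39 FPKM in K2KO without overlap, and did not pass (log2 fold change 1.14 ± 0.41, adjusted p = 0.077, limma). The summed monocyte level was 39.3 ± 11.7 and 44.4 ± 5.03 FPKM in LysM and K2KO. Of the 8 neutrophil markers 6 were tested, and Camp fell from 13.6 ± 2.21 to 6.40 ± 2.53 FPKM while S100a9, the most abundant, did not pass. The means of S100a8 (56.6 and 67.5 FPKM in LysM and K2KO), Elane (2.29 and 3.21 FPKM), Mpo and Ngp, none of which passed, and of Cxcr2, which was not tested, were higher in K2KO, and the sum of the list was 241 ± 52.7 and 242 ± 58.5 FPKM. Lymphocyte markers summed to 0.217 to 2.51 FPKM, led by Cd79a, stromal markers to 0.242 to 3.36 FPKM, led by Dcn, and endothelial markers to 2.41 to 4.59 FPKM, led by Kdr. The 4 erythroid and megakaryocyte markers summed to 143 to 363 FPKM, nearly all from Pf4 (141 to 361 FPKM), and 2 genes each of the endothelial and of this list were tested and did not pass. All 8 lymphocyte and all 6 stromal markers were below the filter and were not tested. The stromal sum was 0.627 ± 0.527 FPKM in LysM and 1.73 ± 1.23 FPKM in K2KO libraries, and each of the 6 had a higher mean in K2KO. Of the sex-linked genes, Xist rose in the K2KO libraries (12.6 ± 1.39 to 17.4 ± 2.62 FPKM, log2 fold change 0.45 ± 0.12, adjusted p = 0.032, limma), and Ddx3y was listed at 0 in all 8 libraries. The part of Spn, Camp and the other markers in the fall of Cx3cr1 and Ccrl2 was not tested.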

How the data were processed

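Total RNA of BMDMs from LysM and K2KO mice was sequenced in 4 libraries per genotype. The authors deposited 1 table of FPKM (fragments of a gene over its transcript length and the mapped fragments of the library, computed with Cufflinks) without pooling of replicates and without columns of their own comparisons. The methods name TopHat2 and mm10 for alignment, whereas the submitters' processing notes list STAR, Cufflinks and Cuffdiff, so the aligner is uncertain. The sources also differ on the RNA kit. Whether counting used strand is not given in the sources used here. All 8 columns were mapped to a genotype and none to a mouse (0 columns were left out). Depth per library is unknown, so no counting interval was given, and p-values measure the spread between libraries.

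Gene positions, transcript length and GC content came from GENCODE M21 on GRCm38 (23645 of 23761 identifiers matched) and promoter sequences from RefSeq (GRCm38.p6). For the 10920 genes whose FPKM averaged 1 or more, genotypes were compared as log2(FPKM + 0.1) with limma 3.58.1 (lmFit, eBayes with an intensity trend, no covariate) in R 4.3.3, with Benjamini-Hochberg adjustment. The fit was also run on simulated data with independent errors for each gene. That simulation held no GC trend and no effect shared by the genes of a library, so it does not cover them. For single values an exact permutation test, two-sided, went through the 70 assignments of 4 against 4 libraries (smallest p = 0.0286).

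The receptors and gene lists were chosen with earlier results of these data known. Named are the 9 receptors, Klf2, up to 5 largest increases and decreases and the 3 most abundant genes of each list, the 3 genes most like each receptor, listed neighbours in the receptor cluster, leading cell type markers, Gapdh and Actb. Further ligands (Ccl5, Rarres2, Cx3cl1, Cxcl12 and Ccl19), markers and overlapping or neighbouring genes were picked with their values in view. 2 genes, 1 of the other receptors and 1 neighbour, enter the counts but are not reported here. Alternatives were pseudocounts of 1 and 0.01, a mean FPKM of at least 0.1 or no filter, quantile and upper-quartile scaling, limma without trend, ordinary least squares, a replicate block, a GC content and length correction (local regression, span 0.3) and leaving out each library.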

Additional observations from a re-analysis of the deposited data

Results flagged for a closer look

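Dixon's criterion at the 95% level was applied to 124 groups of 4 libraries, from 62 genes. These were the receptors, Klf2, Gapdh, Actb, the largest changes and levels of each list and the genes that followed a receptor. Genes named for other reasons, such as the cell type markers, Ccl5 and Gm43814, were not screened. The criterion picked out 9 groups in which a single library stood far from the rest. Chance picks about 1 in 20 independent groups, but these groups are not independent, since genes named for following a receptor share its outlying libraries. Ccr7 was at 0.302 FPKM in LysM0, where the other LysM libraries were at 1.12 to 1.29 FPKM. Ackr3 was at 0.0906 FPKM in LysM1, against 0.0138 to 0.0174 FPKM. Bid, which followed Ccr7, was at 11.1 FPKM in LysM0 (others 13.1 to 13.2 FPKM), and Smpdl3b, which followed Cmklr1, was at 2.27 FPKM in LysM0 (others 3.45 to 3.68 FPKM). Phip and Slc30a9, which followed Ccr3, were at 2.54 and 6.79 FPKM in LysM2 (others 2.16 to 2.17 and 5.90 to 5.98 FPKM). Ccl6 was at 221 FPKM in K2KO3 (others 305 to 309 FPKM), Pik3r6 at 4.48 FPKM in K2KO0 (others 3.63 to 3.73 FPKM) and Gm37336 at 0.982 FPKM in K2KO1 (others 1.36 to 1.40 FPKM).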

How the results depend on the processing

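With all libraries, 11 alternatives were run. Ccrl2 passed in 10 of them, Cmklr1 and Cx3cr1 in 8 each and Ccr3 in 6. With no filter on low values 483 genes passed in place of 2014, and 0 of the 4 receptors did. The log2 fold changes stayed -0.82 for Ccrl2, -0.64 for Cmklr1, -1.09 for Cx3cr1 and 0.52 for Ccr3, at adjusted p of 0.052, 0.067, 0.0996 and 0.094. The other receptors, ligands and signalling genes then gave 0, 1 and 4 passing genes in place of 5, 4 and 13. Ordinary least squares gave 746 genes, 1 receptor (Ccrl2), 0 other receptors and 1 ligand, with adjusted p of 0.053 for Cmklr1 (-0.64), 0.074 for Cx3cr1 (-1.09) and 0.069 for Ccr3 (0.52). Under quantile normalization Ccr3 was at 0.41 (adjusted p = 0.063) and Cxcr4 passed at 0.48. The GC content and length correction gave 1095 genes, 3 other receptors, 6 signalling genes and 0.33 for Ccr3. With a pseudocount of 0.01 the difference of Ackr3 moved from -0.12 to -0.69. In limma without an intensity trend 4 receptors, 4 other receptors and 3 ligands passed. Ccl7 (adjusted p = 0.0503) and S1pr2 (adjusted p = 0.052) did not pass there.

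The deviations of same-numbered libraries from their group means were nearly uncorrelated (-0.07 to 0.07). These values do not bear on pairs or batches of libraries with unlike numbers. A replicate block on the column numbers gave 2057 genes with all 4 receptors still passing (Cx3cr1 adjusted p = 0.049, limma). Under this block 3 ligands and 12 signalling genes passed. Ccl2 (adjusted p = 0.059, limma) and Tiam1 (adjusted p = 0.064, limma) did not. The block together with the GC content and length correction gave 864 genes, 1 receptor (Ccrl2), 0 other receptors, 2 ligands and 4 signalling genes, with Cmklr1 at -0.58 (adjusted p = 0.066), Cx3cr1 at -1.14 (0.073) and Ccr3 at 0.33 (0.13).

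With 1 library left out, 337 (without LysM3) to 2837 (without K2KO3) genes passed, 1 to 4 receptors, 0 to 5 other receptors, 1 to 6 ligands and 2 to 16 signalling genes. The log2 fold changes ranged from -0.92 to -0.74 for Ccrl2, -0.75 to -0.57 for Cmklr1, -1.32 to -0.87 for Cx3cr1, 0.46 to 0.64 for Ccr3, 0.22 to 0.43 for Ccr1, 0.35 to 0.99 for Ccr7, 0.22 to 0.40 for Cxcr4, -0.32 to 0.06 for Ackr3 and -0.40 to 0.03 for Ccr2. The sign of Ackr3 turned without LysM1 (0.06), and that of Ccr2 at 0.019 without LysM2 and at 0.030 without K2KO1. Fewer libraries enter these fits. The log2 ratio of the summed macrophage markers was -0.10, and 0.064 as a share of the summed FPKM of each library, which was chosen after seeing the data. The causes of the other changes were not tested. Values near 1 FPKM or below, as for Ccr7 and Ackr3, rest on an unknown number of reads.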
